A study of Mus musculus with 8 samples.

Results

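PL12 is 1 of 4 mouse tumour cell lines in a bulk RNA-seq study, and it is described here across all genes against PL1, PLA and PLA4. A gene was kept where both PL12 libraries lay above, or both below, all 6 libraries of the other lines on the scale of normalised CPM (counts scaled to a common library size). Of 18648 genes with enough reads, 6883 were kept (36.9%), 3335 with PL12 above (17.9%) and 3548 with PL12 below (19.0%). These positions define the set, so they are given as a description with no test. Which side a gene took depended on the scaling: on counts not scaled for library size 686 genes lay above and 3930 below, the first PL12 library being the shallowest of the 8.

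The 4 lines were grown from lung squamous cell carcinoma (LUSC) of genetically engineered mice, and the study asks what changes when Ackr3, an atypical receptor for the chemokine Cxcl12, is lost. Each line gave 2 total RNA libraries (PL1, PL12, PLA and PLA4, replicates 1 and 2). The labels name the lines as PL or PLA without spelling out the letters or listing the engineered alleles, and they give no treatment, time point, strain, sex or age. Each line is a single line, and nothing in the labels says that its 2 libraries came from separate cultures, so every SE and p below reflects how far these libraries differ, and that spread may be technical.

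Squamous carcinoma cells resemble the basal layer of stratified epithelium, which rests on a basement membrane through hemidesmosomes. Basal cells are kept in that state by the transcription factor p63 (Trp63), together with Sox2, and build their filaments from keratins 5 and 14. Simple, single-layered epithelium such as that of the distal airway and gut builds its filaments from keratins 8, 18 and 19 instead, and Nkx2-1 and Foxa2 are regulators of lung and endoderm identity.

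The 8 libraries held 48857960 to 142458281 assigned reads, and 48857960 and 107564405 of these totals were the PL12 libraries. Between 11986 and 12493 genes reached 1 CPM in a library. The PL12 libraries were close to each other (r = 0.997 over genes, with 64 genes apart by more than 2-fold), as were those of PLA (r = 0.999, 8 genes). PL1 and PLA4 each held libraries that differed more (r = 0.978 with 1174 genes and r = 0.974 with 1416 genes). PL1 replicate 2 (Vim at 40.2 CPM and Dcn at 10.7) and PLA4 replicate 1 (Vim at 61.6) were the higher Vim libraries of their lines. By r, neither was the farther of its pair from PL12. With the PL12 libraries, r was 0.948 and 0.947 for PL1 replicate 2 and 0.939 and 0.94 for PL1 replicate 1. It was 0.925 with both for PLA4 replicate 1 and 0.916 with both for PLA4 replicate 2. By genes apart by more than 2-fold, PLA4 replicate 1 was the farther (3992 and 3911 genes, against 3785 and 3682 for replicate 2). Ackr3 was at 25.3 and 26.3 CPM in PL12, 86.3 and 33.2 in PL1, 0.0487 and 0.0254 in PLA and 0.387 and 0.228 in PLA4. PL12 thus lay below PL1 and above PLA and PLA4. Because the labels list no alleles, these levels are a description and not a check of genotype. Stk11, a kinase often lost in lung cancer, was at 15.4 and 20.9 CPM in PL12 and 18.97 to 28.9 in the other lines.

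To test differences, each gene was fitted with edgeR's quasi-likelihood model (TMM scaling, 1 mean per line). A gene was called when PL12 differed from each of PL1, PLA and PLA4 in the same direction at a Benjamini-Hochberg adjusted p under 0.05. The p given below is the largest of those 3 adjusted values, and each log2 fold change compares PL12 with the mean of the 3 lines on the log2 scale, ± SE, with 2 libraries per line. PL12 was called higher at 958 genes (5.14%) and lower at 1307 (7.01%), together 12.1% of those tested. All 2265 lay outside the other lines, and because calls and positions come from the same libraries neither supports the other. The median log2 fold change was 1.65 among genes called higher, -1.48 among those called lower and -0.02 over all genes tested. In 539 of the genes called higher and 730 of those called lower, PL12 was past 2-fold of the nearest line, and in 235 and 164 it was past 8-fold. Protein-coding genes made up 92% and 92.1% of the calls, against 78% of the genes tested.

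The number of calls depended on single libraries. Without PL12 replicate 1 the calls were 142 higher and 273 lower, and without replicate 2 they were 167 and 298. Without PLA replicate 1 they were 278 and 495, and without replicate 2 they were 277 and 500. PL1 replicate 2 and PLA4 replicate 1, the higher Vim library of each line, were also left out together (the first pair below). PL1 replicate 1 and PLA4 replicate 2 were left out instead in another setting (the second pair). More genes were called each way in both settings than with all 8 libraries. With the libraries of each line summed, so that 1 PL12 profile faced 3, edgeR called 0 genes (lowest adjusted p = 0.461), while 1686 (9.04%) had an unadjusted p under 0.05.

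For comparison, the same rule of position kept 2436 genes for PL1 (13.1%), 6753 for PLA (36.2%) and 3708 for PLA4 (19.9%). PL12 and PLA, whose paired libraries were close, had the higher shares. The share for each line was not tested against the others.

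Gene lists by function are used below. Listed genes with too few reads were not tested. Genes near 0 in the other lines entered the tested set only through their PL12 reads, so they could be called only higher. Among them were Nkx2-1, Foxa2, Sox17, Insm1, Vgll1, Sp5 and H60b. Each count of called members with all 8 libraries is to be read beside the shares over all genes tested, 5.14% higher and 7.01% lower. A count with libraries left out belongs beside the calls over all genes in that setting, given above for PL12 and PLA. Higher and lower calls were 835 and 1280 without PL1 replicate 1 and 880 and 1212 without replicate 2. For PLA4 replicates 1 and 2 they were 1246 and 1556, and 1290 and 1560. Without the first pair they were 2273 and 2662, and without the second 2680 and 2684. Where a count in 1 direction is 0 by edgeR, DESeq2 gave 0 as well, and so did an unadjusted p under 0.05 in each of the 3 comparisons, save for 1 of 9 sex chromosome genes called lower at the unadjusted p. Leaving out 1 library or either pair gave at most 2 calls in such a direction, apart from 6 mesenchymal genes called higher without the first pair.

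**Figure D1:**
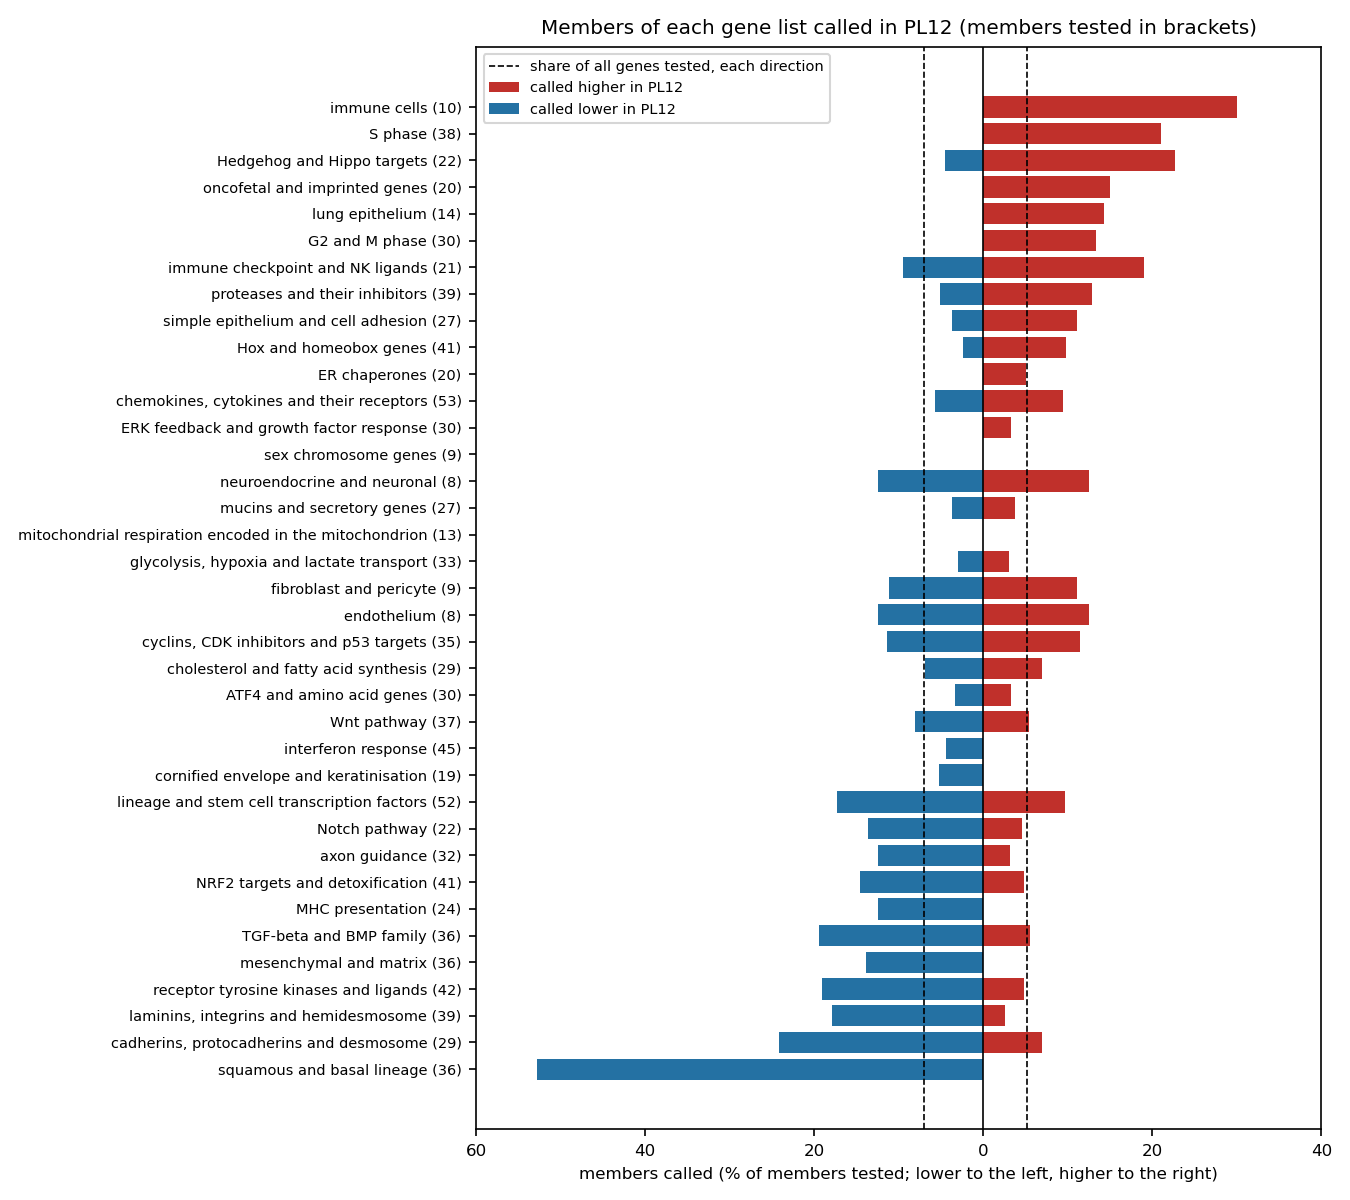
Share of tested members of 37 gene lists called higher (red, to the right) or lower (blue, to the left) in PL12 than in each other line, in percent, with the number of members tested in brackets and dashed lines at the shares over all genes tested (5.14% higher and 7.01% lower). The squamous and basal list reached 52.8% lower, and the immune, Hedgehog and Hippo, and S phase lists lay farthest to the right at 30, 22.7 and 21.1%.

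Many squamous and basal genes were lower in PL12. Of 36 members tested, 19 were called lower (52.8%, against 7.01% of all genes) and 0 higher, and the median log2 fold change was -2.14. By position, 27 lay below all other libraries (19.0% of all genes did) and 1 above (17.9%). Trp63, the p63 gene (chromosome 16, 25683763 to 25892102 on the plus strand, GRCm38), was at 29.2 and 26.3 CPM in PL12, 381 and 373 in PL1, 352 and 360.4 in PLA and 306 and 386 in PLA4. Both PL12 values were below every other library by a wide margin and the 6 others overlapped one another. The log2 fold change was -3.70 ± 0.16 (adjusted p = 0.000388).

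Several keratins of basal and wounded epithelium were lower too. Krt5 was at 284 and 315 CPM in PL12, 5251 and 2645 in PL1, 6542 and 6439.97 in PLA and 4807 and 5933 in PLA4 (-4.11 ± 0.36, adjusted p = 0.00232). Its partner Krt14 was at 759 and 773 CPM in PL12 against 3148 to 7813 elsewhere (-2.74 ± 0.39, adjusted p = 0.00977). No library of another line came near PL12 for either keratin. Krt17 was at 80.5 and 100.2 CPM against 690.5 to 2465, and the wound keratin Krt6a was at 582 and 624 against 2089 to 5197. Sox2 was at 10.05 and 12.6 CPM in PL12, 69.3 and 70.1 in PL1, 27.6 and 25.2 in PLA and 131 and 109 in PLA4 (-2.42 ± 0.15, adjusted p = 0.0025), so PLA was the nearest line. With each library left out in turn, the calls of Trp63, Krt5, Krt17, Krt6a and Sox2 held. Calls were lost, with the highest adjusted p in parentheses, without either library of PL12 or PLA for Krt14 (0.0747).

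Attachment genes of the basal cell were part of the same group. Dsg3, a desmosomal cadherin, was at 40.7 and 34.2 CPM in PL12 and 342 to 700.4 in the other lines (-3.72 ± 0.25, adjusted p = 0.00112). Fat2, a giant cadherin of squamous epithelium, was at 22.9 and 20.2 against 218 to 453. Col17a1, the collagen of the hemidesmosome, was at 199.6 and 191 against 827 to 3968 (-3.24 ± 0.49). Lamb3, a chain of laminin 332, was at 308 and 311 against 483 to 1281. PL12 lay below every other library for all 4, and its nearest neighbour for Lamb3 and Col17a1 was PL1 replicate 2. Perp, a p63 target found in desmosomes, was at 447 and 392 against 957 to 4327, and Grhl3, a factor of barrier formation, was at 1.62 and 1.17 against 12.01 to 26.7. Leaving out any 1 library kept the calls of Dsg3, Fat2 and Grhl3. The adjusted p missed 0.05 without either library of PL12 for Col17a1 (0.101) and Perp (0.0639), and without either library of PL12 or PLA for Lamb3 (0.189).

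Not every squamous gene was called. The desmosomal cadherin Dsc3 had 0 and 0 counts in PL12, but PL1 held 2 and 4 counts, and it was not called (adjusted p = 0.182). Jag1, a Notch ligand, was at 134 and 122 CPM against 254 to 745 (adjusted p = 0.0571), and Pkp1, a desmosomal plaque protein, was at 391 and 377 against 600.3 to 1947 (adjusted p = 0.111). The count of squamous members called lower was 8 without either PL12 library and 29 without the first pair.

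Cornified envelope genes, which mark the last stage of squamous differentiation, were mostly not called. Of 19 tested, 1 was called lower, 5.26% against 7.01% of all genes. It was Ivl (involucrin), at 6.73 and 5.72 CPM in PL12 and 29.999 to 79.5 elsewhere (-2.95 ± 0.39, adjusted p = 0.00665). Krt10 was at 2.11 and 2.92 against 2.32 to 6.46, and Krt13 at 1.51 and 1.53 against 0.357 to 13.6. PL12 thus lay within the range of the other lines for Krt13, while for Krt10 library 1 lay below that range and library 2 within it. Past 0.05 went the adjusted p without either library of PL12 for Ivl (0.07).

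**Figure D2:**
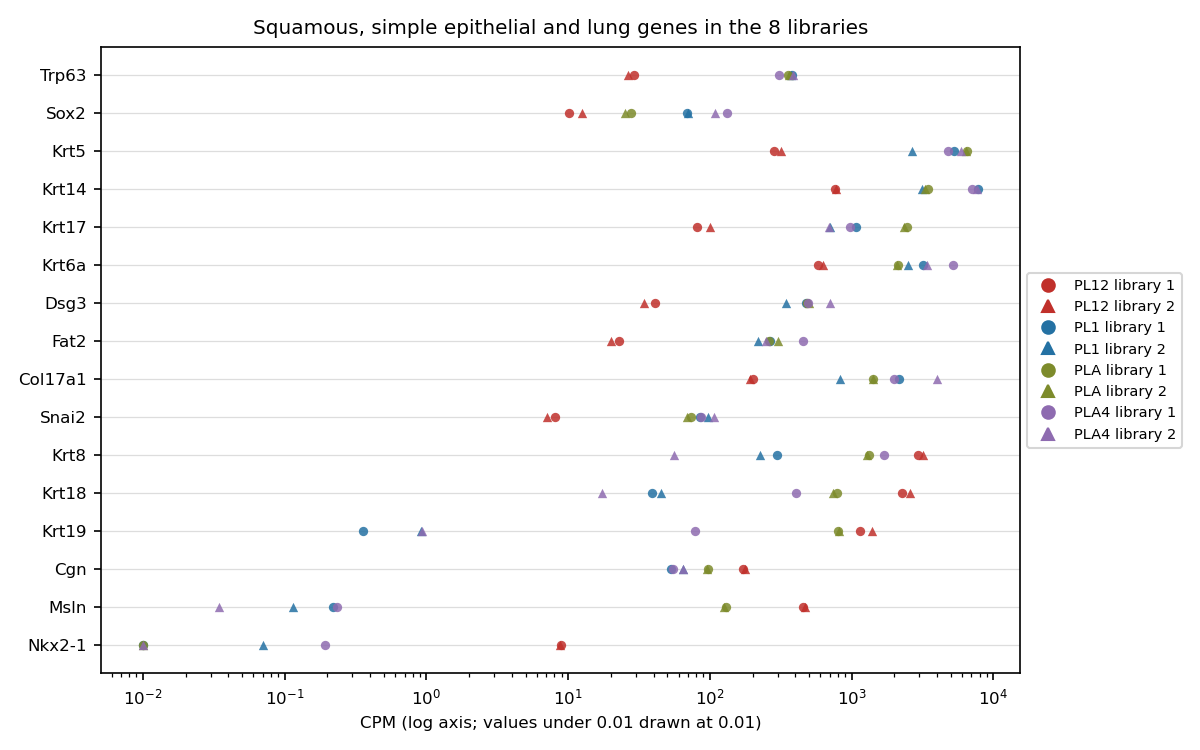
CPM of 16 squamous, simple epithelial and lung genes in each of the 8 libraries on a log axis, with colours for lines and shapes for replicates. The PL12 points lie to the left of all others from Trp63 to Snai2, with Trp63 at 29.2 and 26.3 CPM, and to the right of all others from Krt8 to Nkx2-1.

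The simple epithelial keratins Krt8, Krt18 and Krt19 had their highest levels in PL12, with a wide spread over the other lines, and Krt7 did not. Krt8 was at 2938 and 3172 CPM in PL12, 296 and 225 in PL1, 1334 and 1275 in PLA and 1686 and 56.2 in PLA4. Its partner Krt18 was at 2266 and 2572 CPM in PL12 and 17.4 to 787 elsewhere, and Krt19 was at 1138 and 1385 against 0.357 to 811. Krt7 was at 1997 and 2275 CPM in PL12 and 49.02 to 2571 elsewhere, PLA being higher. PL12 was above all 6 libraries for the other 3, but the adjusted p values were 0.449, 0.286 and 0.753, and none of the 4 was called. Per transcript length, in TPM (a length-corrected relative abundance), PL12 held Krt8 at 2324 and 2537 and Krt18 at 2591 and 2905, above Krt5 at 197 and 222 and Krt14 at 711 and 725. In the 6 other libraries the TPM of Krt5 was 2013 to 4800.2 and that of Krt14 was 3189.7 to 7417, each above that of Krt8 in the same library. In bulk RNA, fewer cells with a gene and less RNA per cell cannot be told apart.

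Of 27 genes of simple epithelium and cell adhesion tested, 3 were called higher (11.1%, against 5.14% of all genes) and 1 lower. By position, 15 lay above all other libraries (17.9% of all genes did) and 2 below (19.0%). Cgn (cingulin), a tight junction adaptor, was at 171 and 177 CPM in PL12, 52.9 and 64.1 in PL1, 96.5 and 95.99 in PLA and 55.1 and 64.9 in PLA4 (1.32 ± 0.11, adjusted p = 0.00552). Rab25, a GTPase of epithelial recycling, was at 102 and 115 against 53.7 to 75.003, and Ap1m2, an epithelial sorting adaptor, was at 81.3 and 84.6 against 42.2 to 60.2. All 3 were above every other library in both PL12 replicates. F11r, a junctional adhesion molecule, was lower, at 286 and 266 against 368 to 549.8. The E-cadherin gene Cdh1 was at 724 and 631 against 637 to 807, library 2 lying just below the other lines and library 1 among them. Epcam was at 349.6 and 342 against 140.4 to 417, inside the other lines. No single library decided the call of Cgn. The threshold was missed, with the highest adjusted p in parentheses, without either library of PL12 or PLA for Rab25 (0.118), and without either library of PL1, PL12 or PLA for Ap1m2 (0.203), and without either library of PL12 or PLA or PLA4 library 1 for F11r (0.182). Ap1m2 also missed without the filter on low counts, and F11r with the size factors of DESeq2. The count called higher was 1 without either PL12 library or either PLA library, 8 without PLA4 replicate 1, 7 without PLA4 replicate 2, 14 without the first pair and 13 without the second pair.

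Several regulators of endoderm and lung were at or near 0 in the other lines and present in PL12. Nkx2-1 was at 8.86 and 8.69 CPM in PL12, 0 and 0.0705 in PL1, 0 and 0 in PLA and 0.194 and 0 in PLA4 (adjusted p = 0.0411). Foxa2 was at 1.41 and 1.42 CPM in PL12 with 0 to 1 counts in each other library (adjusted p = 0.00726). Sox17, a factor of endoderm and endothelium, was at 9.72 and 10.6 CPM against 0 to 0.0176 (adjusted p = 0.00509). All 3 were well above the 3 counts taken as the lower limit of a library, 0.0614 and 0.0276 CPM in the PL12 libraries. Gata4, a factor of endoderm and heart, was at 4.48 and 4.9998 against 0.00774 to 0.361, and Eomes, a factor of early embryonic layers, was at 11.8 and 12.7 against 0 to 0.138. Insm1, a factor of neuroendocrine cells, was at 6.73 and 6.71 against 0 to 0.0353. The Eomes call did not rest on any 1 library. The adjusted p exceeded 0.05 without either library of PL12 for Foxa2 (0.0659), Sox17 (0.0562), Gata4 (0.0633) and Insm1 (0.0823), and without either library of PL1, PL12 or PLA for Nkx2-1 (0.155). DESeq2 did not call Nkx2-1 (adjusted p for its log2 fold change = 0.142).

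Lung differentiation genes were mixed. Of 22 lung epithelial genes listed, 14 had enough reads to be tested. The 2 called higher were Nkx2-1 and Foxa2, 14.3% of those tested against 5.14% of all genes, and 0 were called lower. Both entered the tested set only through their PL12 reads, so that share is not a separate result about the list. DESeq2 called 1. The surfactant genes Sftpc and Sftpb and the club cell secretoglobin Scgb1a1 had 0 counts in both PL12 libraries. Another surfactant gene, Sftpd, was at 79.1 and 80.5 CPM in PL12, 0.0921 and 7.57 in PL1, 9.55 and 9.73 in PLA and 1.08 and 0.72004 in PLA4, above all other libraries without a call (adjusted p = 0.128). Foxj1, the regulator of motile cilia, was at 45.4 and 61.7 CPM against 0.533 to 29.01 (adjusted p = 0.511). Foxa1 was at 157 and 145 against 113 to 223, and the alveolar gene Hopx was at 3.07 and 3.23 against 0.564 to 102. Of the neuroendocrine genes, Calca had 0 counts in PL12, Chga had 1 and 0, and the vesicle protein Snap25 was lower, at 0.512 and 0.404 against 2.32 to 9.15 (-3.00 ± 0.29, adjusted p = 0.00245).

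**Figure D3:**
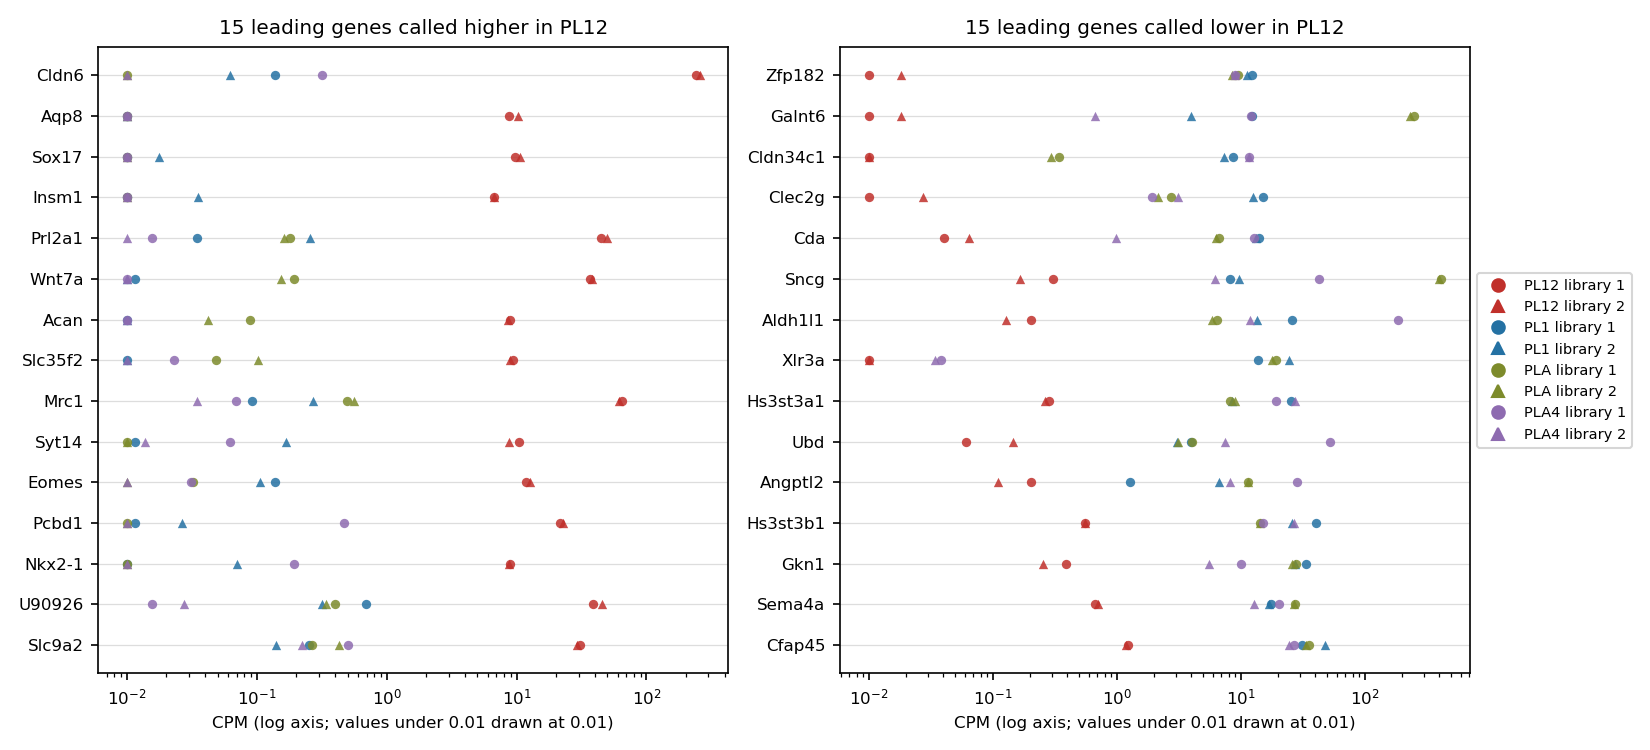
CPM of the 15 genes called higher (left) and the 15 called lower (right) in PL12 with the largest difference from the nearest line, in each of the 8 libraries on a log axis, with colours for lines and shapes for replicates. PL12 reached 242 and 257 CPM of Cldn6, and it stayed under 1.3 CPM for all 15 genes on the right.

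Among the genes called higher, the tight junction gene Cldn6 (chromosome 17, 23679249 to 23682446 on the plus strand) had the largest difference from the nearest line. Cldn6, a claudin of embryonic epithelium, had 11804 and 27964 counts in PL12 and 0 to 41 in each other library, which is 242 and 257 CPM against 0 to 0.317 (adjusted p = 0.00511). Wnt7a, a secreted Wnt ligand, was at 36.6 and 38.1 CPM against 0 to 0.195 (adjusted p = 0.000354). Both genes were expressed in PL12 and at most at trace level in every other library. The water channel Aqp8 was at 8.697 and 10.2 against 0 to 0.00882, the cartilage proteoglycan Acan at 8.902 and 8.52 against 0 to 0.0894, and the sodium and proton exchanger Slc9a2 at 30.9 and 29.3 against 0.141 to 0.503. Prl2a1, a placental member of the prolactin family, was at 44.6 and 49.5 against 0 to 0.256. Others of the 15 were Slc35f2 (9.43 and 8.88 CPM against 0 to 0.102), the vesicle protein gene Syt14 (10.5 and 8.805 against 0 to 0.167), Pcbd1, which takes part in tetrahydrobiopterin recycling (21.6 and 22.9 against 0 to 0.472), and the transcript U90926 (38.7 and 45.1 against 0.0155 to 0.6904). The calls of Cldn6, Wnt7a, Aqp8, Acan, Slc9a2, Prl2a1, Slc35f2 and U90926 held with every library left out in turn. A call was lost, with the highest adjusted p in parentheses, without either library of PL12 for Syt14 (0.0944), and without either library of PL1, PL12 or PLA for Pcbd1 (0.126).

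In 12 called genes the other 6 libraries were at or near 0, among them Sox17, Aqp8 and Foxa2. The remaining 9 were Sall1 (5.198 and 4.35 CPM in PL12), Klhl1 (4.85 and 4.87), Fam81b (3.68 and 3.502), Unc13c (3.32 and 3.11), Fam71f1 (1.86 and 1.93), the proton pump gene Atp12a (1.84 and 1.54), St8sia6 (1.86 and 1.16), Onecut3 (1.39 and 1.47) and the Pgk1 copy Pgk1-rs7 (14.4 and 3.57). Sall1 and Onecut3 encode developmental transcription factors. Pgk1-rs7 is nearly identical to Pgk1, so the split of reads between them is uncertain. In the opposite direction 2 called genes were near 0 in PL12 and expressed in all other libraries, the zinc finger gene Zfp182 (0 and 2 counts in PL12, 8.57 to 12.4 CPM elsewhere) and the lectin gene Clec2g (0 and 3 counts, 1.94 to 15.1 CPM).

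The other genes with the largest decreases were of many kinds. Galnt6, which starts O-linked glycans, was at 0 and 0.0184 CPM in PL12 and 0.665 to 251 elsewhere, the top of that range being PLA. Hs3st3a1 and Hs3st3b1, neighbouring genes for heparan sulfate 3-O-sulfotransferases, were at 0.286 and 0.267 against 8.198 to 27.3 and at 0.553 and 0.561 against 14.4 to 40.7 (adjusted p = 0.00252 and 0.000895). Both members of this pair were under 1 CPM in PL12 alone. Sema4a, a semaphorin, was at 0.675 and 0.708 against 12.95 to 27.3 (-4.84 ± 0.26). Cfap45, a ciliary protein gene, was at 1.25 and 1.19 against 24.7 to 47.9 (-4.76 ± 0.23, adjusted p = 0.000483). Gkn1, a stomach mucosal protein gene, was at 0.389 and 0.257 against 5.57 to 33.5. For Sema4a and Cfap45 the 6 other libraries lay close together. Spread among the other lines was wider for Sncg (0.307 and 0.165 against 6.28 to 416), Aldh1l1 (0.205 and 0.129 against 5.92 to 185), Cda (0.0409 and 0.0643 against 0.9901 to 14.1), Ubd (0.0614 and 0.147 against 3.08 to 53.1) and Angptl2 (0.205 and 0.1103 against 1.29 to 28.4). Cldn34c1 and Xlr3a had 0 counts in both PL12 libraries, with 0.296 to 11.8 and 0.0346 to 24.8 CPM elsewhere. With each library left out in turn, the calls of Zfp182, Clec2g, Hs3st3a1, Hs3st3b1, Sema4a, Cfap45, Gkn1 and Cldn34c1 held. The adjusted p rose past 0.05 without either library of PL12 for Sncg (0.119) and Cda (0.0978), and without either library of PL12 or PLA or PL1 library 1 for Galnt6 (0.156), and without either library of PL12 or PLA for Aldh1l1 (0.16), and without either library of PL12 or PLA library 1 for Ubd (0.131), and without either library of PL12 or PLA or PL1 library 2 for Angptl2 (0.158), and without either library of PL12 or PLA4 for Xlr3a (0.182).

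Of 36 mesenchymal and matrix genes tested, 5 were called lower (13.9%, against 7.01%) and 0 higher with all libraries, with a median log2 fold change of -1.62. Snai2 (Slug), a transcription factor of basal and migrating epithelial cells, was at 8.104 and 7.04 CPM in PL12, 84.9 and 97.2 in PL1, 73.8 and 68.9 in PLA and 85.9 and 108 in PLA4 (-3.50 ± 0.16, adjusted p = 0.000458). PL12 was low in both libraries and the other 6 overlapped. Acta2 (smooth muscle actin) was at 10.6 and 9.22 against 69.9 to 763, the fibronectin receptor subunit Itga5 at 13.4 and 12.4 against 32.7 to 82.6, and the matrix glycoprotein Thbs1 at 811 and 702 against 1539 to 4251. Mmp2 was at 0.123 and 0.0827 against 1.32 to 4.27. Leaving out any 1 library kept the calls of Snai2 and Itga5. Calls were lost, with the highest adjusted p in parentheses, without either library of PL12 for Acta2 (0.0597) and Mmp2 (0.0797), and without either library of PL12 or PLA for Thbs1 (0.162). The count called lower was 2 without either PL12 library, 8 without the first pair and 10 without the second pair, and the count called higher was 1 without PL1 replicate 2 and 6 without the first pair.

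Of the classic mesenchymal markers, Vim, Zeb1, Cdh2 and Fn1 were not outside the other lines, while the transcription factors Snai1 and Twist1 lay above them at a low level, and none was called. Vim was at 10.1 and 11.03 CPM in PL12, 0.437 and 40.2 in PL1, 0.0244 and 0.0339 in PLA and 61.6 and 0.242 in PLA4 (adjusted p = 0.785). Its highest values were in PL1 replicate 2 and PLA4 replicate 1. Zeb1 was at 0.9004 and 0.928 CPM against 0.4401 to 8.29, and Cdh2 at 0.532 and 0.505 against 0 to 3.72. Fn1 was abundant in all lines, at 2211 and 2030.3 in PL12 and 1426 to 2929 elsewhere. Snai1 was at 1.02 and 1.16 against 0 to 0.9697, and Twist1 at 0.4502 and 0.441 against 0 to 0.361 (adjusted p = 0.648 and 0.557). In PL12 the fibroblast genes Lum and Thy1 had 0 counts in both libraries. Of 9 fibroblast and pericyte genes tested, Fbln1 was called lower (2.86 and 2.44 against 14.96 to 43.4) and Col15a1 higher (15.5 and 14.9 against 3.02 to 5.76). Each call was 11.1% of the list, against 7.01% lower and 5.14% higher over all genes. The summed level of this list was 979 and 1047 CPM in PL12 against 41.0 to 124 elsewhere, nearly all of it Fbln2, at 959.99 and 1029.6 in PL12 and 2.76 to 64.8 elsewhere (adjusted p = 0.0509, not called). The part of other cells in these values was not tested.

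Hippo pathway genes gave one of the higher shares of calls. The Hippo kinases restrain the co-activators Yap1 and Wwtr1 (TAZ), which act through the TEAD DNA-binding factors, and Ccn1, Ccn2, Ankrd1 and Amotl2 are widely used targets. Of 22 Hedgehog and Hippo genes tested, 5 were called higher (22.7%, against 5.14%) and 1 lower. The median log2 fold change was 0.06, with 12 of 22 positive. By position, 8 lay above all other libraries (17.9% of all genes did) and 3 below (19.0%). To show where TEAD factors could bind, the 250 bases before the first RefSeq start are printed for the 3 targets with an entry among those 4 (RefSeq, GRCm38.p6), with capitals marking the core TEAD motif GGAATG, read on both strands (CATTCC on the other). They lie at chr9:102717554-102717803 on the plus strand, chr3:145649986-145650235 on the minus strand and chr19:36119845-36120094 on the minus strand, each written 5′ to 3′ along the gene.
Amotl2: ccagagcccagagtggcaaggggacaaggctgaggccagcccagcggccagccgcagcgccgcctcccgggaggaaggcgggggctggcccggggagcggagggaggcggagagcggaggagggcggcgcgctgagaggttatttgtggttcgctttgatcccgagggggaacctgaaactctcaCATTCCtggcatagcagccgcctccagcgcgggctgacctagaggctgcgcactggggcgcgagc
Ccn1: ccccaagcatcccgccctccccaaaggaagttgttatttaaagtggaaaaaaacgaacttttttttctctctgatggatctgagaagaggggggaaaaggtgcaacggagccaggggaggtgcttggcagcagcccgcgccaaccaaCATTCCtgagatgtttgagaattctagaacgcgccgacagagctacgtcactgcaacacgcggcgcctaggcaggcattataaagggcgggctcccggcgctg
Ankrd1: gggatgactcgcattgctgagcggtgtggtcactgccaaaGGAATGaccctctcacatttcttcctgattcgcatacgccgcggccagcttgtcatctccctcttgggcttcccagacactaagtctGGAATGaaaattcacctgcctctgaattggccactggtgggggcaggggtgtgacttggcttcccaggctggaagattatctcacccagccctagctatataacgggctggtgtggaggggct
The motif occurred in 12 of the 18 promoters of this list that had an entry (66.7%), in 1354 of 12274 promoters of tested genes (11%) and in 3414 of all 27025 (12.6%). The list members Ajuba and Axl carried it as well, so a match does not mark the called genes. Both lay below all other libraries in PL12 without a call. The mean of Axl was 80.2 CPM in PL12, 179 in PL1, 547 in PLA and 159 in PLA4.

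Of the 4 TEAD genes, Tead1 and Tead2 were higher in PL12, as were the targets Amotl2 and Ccn1. Amotl2, an angiomotin that binds Yap1, was at 244 and 259.9 CPM in PL12, 91.3 and 62.5 in PL1, 90.01 and 89.1 in PLA and 73.8 and 83.2 in PLA4 (1.63 ± 0.14, adjusted p = 0.00335). Ccn1, a secreted matrix protein, was at 501 and 533 CPM in PL12, 238 and 353 in PL1, 295 and 240.4 in PLA and 168 and 161 in PLA4 (1.13 ± 0.16, adjusted p = 0.0399). Both PL12 values exceeded the highest other library, for Ccn1 by less than 2-fold. Tead1 was at 176 and 160.3 CPM against 44.8 to 94.8, and Tead2 at 13.6 and 15.8 against 0.0569 to 3.01. Tead3 was at 20.3 and 24.2 against 19.8 to 42.4 and Tead4 at 26.5 and 28.2 against 9.19 to 29.9, neither called. The TEAD cofactor Vgll1 was at 0.982 and 0.846 against 0 to 0.0423, a low level. Ankrd1 was at 648 and 679 CPM in PL12, 7.84 and 24.9 in PL1, 232 and 225 in PLA and 11.8 and 1.22 in PLA4, and Ccn2 at 387 and 412 CPM against 5.12 to 140.02. PL12 was highest for both targets, but the other lines spread widely and neither was called (adjusted p = 0.2503 and 0.305). Yap1 itself was at 174 and 164 against 156 to 244, and Wwtr1 at 79.3 and 74.2 against 59.03 to 101, within the other lines. The Hedgehog transducer Smo was lower, at 62.5 and 57.7 against 114 to 224. Amotl2 and Tead2 passed whichever library was left out. The adjusted p missed 0.05 without either library of PL12 or PLA or PL1 library 1 for Ccn1 (0.175) and Smo (0.13), and without either library of PL12 for Tead1 (0.088), and without either library of PL12 or PLA for Vgll1 (0.0666). Called members numbered 2 without either PL12 library, 3 without either PLA library, 8 without PLA4 replicate 2, 8 without the first pair and 9 without the second pair.

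Some genes of DNA replication and mitosis were higher in PL12 than in every other line, and the widest gap was to PLA. Of 38 S phase genes 8 were called higher (21.1%, against 5.14%), and of 30 genes of G2 and M phase 4 were (13.3%), with 0 lower in either list. Against PLA the median log2 fold change was 2.21 for S phase and 3.23 for G2 and M phase, with all members positive. Against PL1 it was 0.29 (25 of 38 positive) and 0.40 (27 of 30), and against PLA4 it was 0.65 (36 of 38) and 0.88 (30 of 30). PL1 was thus the nearest line for both lists.

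**Figure D4:**
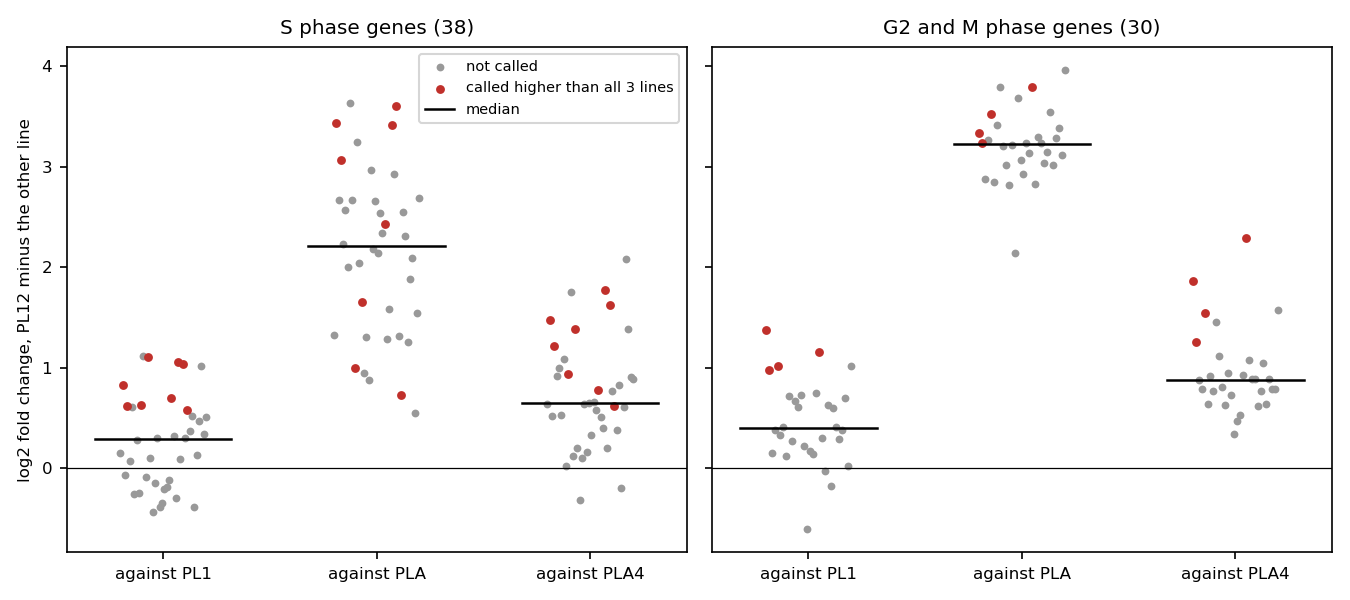
Log2 fold change of PL12 against PL1, PLA and PLA4 for 38 S phase genes (left) and 30 genes of G2 and M phase (right), 1 point per gene, with called genes in red and a line at the median. The medians against PL1 are 0.29 and 0.40, while those against PLA are 2.21 and 3.23.

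The called replication genes included Gins1, a subunit of the replicative helicase, at 19.3 and 19.4 CPM in PL12, 8.89 and 9.04 in PL1, 6.29 and 5.99 in PLA and 7.48 and 7.33 in PLA4 (1.38 ± 0.11, adjusted p = 0.00548). Pole, the catalytic subunit of polymerase epsilon, was at 89.7 and 81.5 against 7.86 to 45.8. The helicase subunit Mcm7 was at 185 and 188 against 34.5 to 130.3 and the S phase cyclin Ccne2 at 42.3 and 37.01 against 3.59 to 26.4. The called mitotic genes were Anln, Kif23, Bub1 and Aurka. Anln (anillin) was at 274 and 248 CPM in PL12, 103 and 97.7 in PL1, 26.03 and 25.7 in PLA and 60.8 and 82.98 in PLA4 (2.19 ± 0.12, adjusted p = 0.00392), Kif23 at 215 and 192 CPM against 14.2 to 104, Bub1 at 91.6 and 81.4 against 7.36 to 50.9 and Aurka at 89.2 and 86.7 against 8.65 to 52.7. Standard proliferation markers were not called: Mki67 was at 477 and 397 against 43.4 to 567 and Pcna at 268 and 258 against 106 to 215. No single library decided the call of Anln. Past 0.05 went the adjusted p without either library of PL12 or PLA or PL1 library 2 for Pole (0.139), Mcm7 (0.142), Bub1 (0.188) and Aurka (0.159), and without either library of PL12 for Gins1 (0.0572) and Kif23 (0.0787), and without either library of PL12 or PLA for Ccne2 (0.165). S phase genes called higher numbered 0 without either PL12 library, 2 without either PLA library, 4 without PL1 replicate 2, 13 without PLA4 replicate 2, 14 without the first pair and 24 without the second pair. Genes of G2 and M phase numbered 1 without either PL12 library, 2 without either PLA library or PL1 replicate 2, 7 without PLA4 replicate 2, 13 without the first pair and 27 without the second pair.

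Among 35 cyclins, CDK inhibitors and p53 targets, 4 were called higher and 4 lower, 11.4% each way (against 5.14% higher and 7.01% lower). Cdkn1c, an imprinted CDK inhibitor (p57), was at 6.02 and 6.19 CPM in PL12 and 0 to 0.4103 elsewhere (adjusted p = 0.00437). The death receptor Tnfrsf10b was at 88.6 and 90.2 against 21.9 to 50.02. The stress regulator Sesn1 was lower, at 6.43 and 5.35 against 11.9 to 87.1, as was Phlda3, an inhibitor of Akt, at 82.2 and 93.2 against 148 to 233. The members thus went both ways. Ccnd1 was at 1209 and 1272 against 64.8 to 363 (adjusted p = 0.0673) and Ccnd2 at 352 and 319.8 against 385 to 1724 (adjusted p = 0.141), the first above and the second below all other libraries without a call. Trp53 was at 131 and 135 against 92.1 to 227 and Cdkn2a at 12.2 and 15.1 against 4.73 to 34.1. The Cdkn1c call did not rest on any 1 library. The threshold was missed, with the highest adjusted p in parentheses, without either library of PL12 or PLA for Tnfrsf10b (0.0746) and Sesn1 (0.2), and without either library of PL12 or PLA or PL1 library 1 for Phlda3 (0.148). Higher members numbered 1 without either PL12 library or either PLA library, 7 without PLA4 replicate 2, 11 without the first pair and 9 without the second pair, and lower ones 1 without PL12 replicate 1 or either PLA library, 0 without PL12 replicate 2, 9 without the first pair and 7 without the second pair.

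Of 42 receptor tyrosine kinases and ligands, 8 were called lower (19%, against 7.01%) and 2 higher (4.76%, against 5.14%). The median log2 fold change was -0.06, with 20 of 42 positive, and the directions were not tested against each other. Egfr, the receptor of the EGF family, was at 480.4 and 433 CPM in PL12, 148 and 120.02 in PL1, 249 and 259 in PLA and 113 and 104 in PLA4 (1.56 ± 0.11, adjusted p = 0.00675). Its ligand Areg was at 171 and 173 CPM against 1.17 to 60.6 (adjusted p = 0.0963), above all other libraries but not called. Igf1r, the receptor of insulin-like growth factors, was at 214 and 208 against 438 to 831 (-1.45 ± 0.12, adjusted p = 0.00227). Fgfr2 was at 49.4 and 40.1 against 134 to 283, and the stem cell factor receptor Kit at 19.95 and 16.4 against 41.3 to 152. Of the ephrin system, Ephb6 (4.58 and 5.41 against 17.5 to 93.4), Epha7 (8.55 and 7.18 against 14.6 to 48.6), Efna1 (16.8 and 18.2 against 42.9 to 86.3) and Efnb1 (27.3 and 30.05 against 42.3 to 109) were lower. Met was at 465 and 406 against 248 to 624 and Erbb2 at 72.4 and 74.02 against 69.2 to 121, inside the other lines. The calls of Igf1r and Ephb6 held with every library left out in turn. The adjusted p exceeded 0.05 without either library of PLA or PL12 library 1 for Egfr (0.06), and without either library of PL12 for Fgfr2 (0.122), and without either library of PL12 or PLA or PL1 library 2 or PLA4 library 1 for Kit (0.176), and without either library of PL12 or PLA or PL1 library 2 for Epha7 (0.168), and without either library of PL12 or PLA for Efna1 (0.0808), and without either library of PL12, PLA or PLA4 for Efnb1 (0.219). Efnb1 also missed with the size factors of DESeq2. Lower members numbered 3 without either PL12 library, 4 without either PLA library and 13 without the first pair. Higher members numbered 0 without PL12 replicate 1 or either PLA library, 1 without PL12 replicate 2, 6 without PLA4 replicate 1, 4 without PLA4 replicate 2, 12 without the first pair and 9 without the second pair.

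Of 30 reporters of ERK signalling, 1 was called higher (3.33%, against 5.14%) and 0 lower, few calls in either direction. By position, 12 of the 30 lay above all other libraries (17.9% of all genes did) and 1 below (19.0%). The median log2 fold change was 0.96, against -0.02 over all genes, with 23 of 30 positive. The call was Plaur, the urokinase receptor, at 78.9 and 82.5 against 10.3 to 33.3 (1.70 ± 0.27, adjusted p = 0.0329). The phosphatase Dusp4 was at 36.2 and 36.5 against 2.09 to 12.3, and the ETS factor Etv4 at 17.3 and 20.1 against 0.125 to 10.2 (adjusted p = 0.116 and 0.0524). Both were above all other libraries without a call. Dusp6, also induced by ERK, was at 78.6 and 73.9 against 24.5 to 94.7. A call was lost, with the highest adjusted p in parentheses, without either library of PL1, PL12 or PLA for Plaur (0.14). The ERK count was 0 without either PL12 library or either PLA library, 2 without PL1 replicate 2, 7 without PLA4 replicate 1, 6 without PLA4 replicate 2 and 12 without either pair, and 6 by DESeq2.

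Few Wnt ligands were called. Of 37 Wnt pathway genes, 2 were called higher (5.41%, against 5.14%) and 3 lower (8.11%, against 7.01%), near the shares over all genes. Wnt7a, described above, was higher, and Wnt4 was lower at 44.7 and 42.8 CPM in PL12, 146 and 140.04 in PL1, 306 and 327 in PLA and 293 and 257 in PLA4 (-2.41 ± 0.12, adjusted p = 0.00102). Wnt10b was at 0.0205 and 0.0735 CPM against 0.923 to 4.56. Other ligands were not called, among them Wnt7b at 313 and 327 against 47.5 to 359 and Wnt5a at 43.7 and 41.3 against 26.5 to 166. Rnf43, a ligase that removes Wnt receptors, was at 3.32 and 3.08 against 8.29 to 40.7 (-2.56 ± 0.20), and the Wnt target Sp5 was higher at a low level, 0.696 and 0.781 against 0 to 0.0115. The common target Axin2 was at 0.593 and 0.818 against 0.203 to 2.29 and Lef1 at 0.184 and 0.156 against 0 to 0.388, neither called. Leaving out any 1 library kept the calls of Wnt4 and Rnf43. The adjusted p rose past 0.05 without either library of PL12 or PLA for Wnt10b (0.115), and without either library of PL12 for Sp5 (0.0714). Members called lower numbered 5 without PL1 replicate 2 or either PLA4 library, 14 without the first pair and 8 without the second pair.

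In the TGF-beta and BMP family, 4 ligands were lower and an antagonist was higher. Of 36 tested, 7 were called lower (19.4%, against 7.01%) and 2 higher (5.56%). Fst (follistatin), which binds activins, was at 250.4 and 238 CPM in PL12, 34.9 and 22.7 in PL1, 20.9 and 20.8 in PLA and 45.4 and 35.8 in PLA4 (3.07 ± 0.16, adjusted p = 0.00118). Inhbb, the activin beta B chain, was at 7.74 and 8.87 CPM against 26.2 to 83.6 (-2.50 ± 0.17, adjusted p = 0.00142). Bmp7 was at 1.003 and 0.689 against 8.24 to 42.2, Tgfb1 at 41.7 and 48.6 against 86.2 to 186 and Tgfb2 at 21.9 and 17.4 against 52.7 to 144. These 4 ligands were lowest in both PL12 libraries. Other ligands were not called, among them Bmp4 at 7.86 and 7.82 against 1.13 to 3.97, above all other libraries, and Inhba at 314 and 278 against 14.9 to 614. The receptor Bmpr1b was at 0.389 and 0.377 against 1.56 to 3.88, also lower. Tgfbr2 was at 232 and 229 against 26.4 to 209.8 and Smad7 at 72.9 and 71.2 against 40.3 to 109, neither called. Fst and Inhbb passed whichever library was left out. Calls were lost, with the highest adjusted p in parentheses, without either library of PL12 or PLA for Tgfb1 (0.11) and Bmpr1b (0.112), and without PL12 library 2 for Bmp7 (0.0503), and without either library of PL12 for Tgfb2 (0.0799). For the family, calls of lower genes numbered 2 without PL12 replicate 1, 1 without PL12 replicate 2 and 3 without either PLA library, and those of higher genes 1 without either PL12 library or either PLA library, 4 without PL1 replicate 2, 5 without the first pair and 10 without the second pair.

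In the Notch pathway, 3 of 22 genes were called lower (13.6%, against 7.01%) and 1 higher (4.55%, against 5.14%). The target Hes1 was at 45.6 and 43.2 CPM in PL12, 169.7 and 265 in PL1, 257 and 234 in PLA and 135 and 178 in PLA4 (-2.19 ± 0.22, adjusted p = 0.00325), lowest in both PL12 libraries. Another target, Nrarp, was higher at 28.3 and 34.3 CPM against 1.72 to 12.8 (2.51 ± 0.19, adjusted p = 0.00749). The ligand Jag2 was at 67.9 and 77.3 against 93.4 to 155, and the co-activator Maml1 at 37.4 and 36.5 against 45.6 to 53.3. Notch1 was at 63.8 and 61.1 against 34.2 to 157. No single library decided the call of Hes1. The adjusted p missed 0.05 without PL12 library 2 for Nrarp (0.0604), and without either library of PL1, PL12 or PLA or PLA4 library 2 for Jag2 (0.22), and without either library of PL12 or PLA or PL1 library 2 or PLA4 library 1 for Maml1 (0.188). Jag2 and Maml1 also missed with the size factors of DESeq2, and Maml1 without the filter on low counts. Calls of lower genes numbered 1 without either PL12 library or either PLA library, 5 without the first pair and 6 without the second pair.

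Integrins and laminins hold basal cells to the basement membrane. Of 39 genes of these families and the hemidesmosome tested, 7 were called lower (17.9%, against 7.01%) and 1 higher (2.56%). The gene called higher was Itga2, a collagen receptor subunit, at 1275 and 1058 CPM in PL12, 40.7 and 51.4 in PL1, 185 and 189.7 in PLA and 47.6 and 13.3 in PLA4 (4.19 ± 0.39, adjusted p = 0.0126). PL12 stood above PLA, the next line, by more than 5-fold. Itgb5 was at 65.96 and 65.7 CPM against 164 to 205 (-1.45 ± 0.11), Col4a5 at 32.7 and 27.6 against 54.5 to 193, and Lama1 at 0 and 0.00919 against 0.194 to 1.98. The hemidesmosomal integrin chains Itga6 (379.9 and 344 against 416 to 1023) and Itgb4 (551 and 583 against 699 to 1524) were below all other libraries without a call (adjusted p = 0.1901 and 0.189). Calls of Itgb5 and Lama1 did not rest on any 1 library. Past 0.05 went the adjusted p without either library of PL12 or PLA for Itga2 (0.0856) and Col4a5 (0.131). The count of lower genes was 3 without either PL12 library, 4 without either PLA library and 12 without the first pair, and that of higher genes 0 without either PL12 library or either PLA library, 3 without PL1 replicate 2 or PLA4 replicate 2, 4 without PLA4 replicate 1, 9 without the first pair and 7 without the second pair.

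Among cadherins, protocadherins and desmosomal genes 7 of 29 were lower (24.1%, against 7.01%) and 2 higher (6.9%). Cdh3 (P-cadherin), the classical cadherin of basal cells, was at 67.4 and 65.8 CPM in PL12, 450.5 and 273 in PL1, 261 and 267 in PLA and 257 and 231 in PLA4 (-2.10 ± 0.22, adjusted p = 0.00275). Cdh13 (T-cadherin), which lacks a cytoplasmic tail, was higher, at 26.9 and 25.4 CPM in PL12, 0.299 and 0.203 in PL1, 4.501 and 4.36 in PLA and 0.00774 and 0 in PLA4 (adjusted p = 0.00296). So a basal cadherin was lowest and T-cadherin highest in PL12, while the ranges of Cdh1 overlapped. Dsc2 was at 59.3 and 47.002 CPM against 112 to 339.6, Pcdh18 at 2.82 and 2.58 against 14.04 to 44.9 and Pcdh19 at 4.83 and 4.29 against 0.145 to 1.14. The calls of Cdh3 and Cdh13 held with every library left out in turn. The threshold was missed, with the highest adjusted p in parentheses, without either library of PL1, PL12 or PLA for Dsc2 (0.15), and without either library of PL12 for Pcdh18 (0.0653), and without either library of PL12 or PLA for Pcdh19 (0.147). The count of lower genes was 4 without either PL12 library.

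Secreted proteases and inhibitors included some of the larger increases at high levels. Of 39 tested, 5 were called higher (12.8%, against 5.14%) and 2 lower (5.13%). Plat, tissue plasminogen activator, was at 231 and 242 CPM in PL12, 2.82 and 15.1 in PL1, 5.11 and 4.97 in PLA and 4.16 and 3.59 in PLA4 (5.40 ± 0.49, adjusted p = 0.00854). Timp3, an inhibitor of metalloproteases, was at 549 and 469.8 CPM in PL12, 0.564 and 5.97 in PL1, 48.3 and 45.6 in PLA and 37.1 and 42.96 in PLA4 (4.80 ± 0.62, adjusted p = 0.0271). Both were more than 8-fold above the highest other library. Klk10 was at 2.29 and 2.74 CPM against 0 to 0.252, and Mmp28 was lower at 4.79 and 4.53 against 16.5 to 32.7. Mmp14 was at 640.01 and 605 against 277 to 668 and Plau at 246 and 259.7 against 109 to 226, without a call. The adjusted p exceeded 0.05 without either library of PL12 for Plat (0.0572) and Mmp28 (0.0681), and without either library of PL12, PLA or PLA4 for Timp3 (0.142), and without either library of PL12 or PLA for Klk10 (0.107). The count of higher genes was 0 without either PL12 library, 1 without either PLA library, 3 without PL1 replicate 1 or PLA4 replicate 2, 10 without the first pair and 9 without the second pair.

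Guidance receptors and ligands were lower at 4 of 32 genes (12.5%, against 7.01%) and higher at 1 (3.12%, against 5.14%). Unc5b, a netrin receptor, was higher at 52.96 and 56.5 CPM in PL12, 9.98 and 13.2 in PL1, 4.32 and 4.15 in PLA and 10.2 and 12.6 in PLA4 (2.73 ± 0.14, adjusted p = 0.00153). Robo1, a Slit receptor, was at 27.9 and 23.4 CPM against 78.1 to 243 (-2.55 ± 0.17), and Sema5a at 2.13 and 1.72 against 11.7 to 80.2 (-4.02 ± 0.23). Plxnd1 was at 4.85 and 4.27 against 9.62 to 23.6. Leaving out any 1 library kept the calls of Unc5b, Robo1 and Sema5a. A call was lost, with the highest adjusted p in parentheses, without either library of PL12 or PLA for Plxnd1 (0.11). Of the guidance genes, those called lower numbered 7 without PLA4 replicate 1, 10 without the first pair and 7 without the second pair.

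Mucin and secretory genes had 1 call each way among 27 (3.7% each, against 5.14% higher and 7.01% lower). Msln (mesothelin), a surface protein of mesothelium and many carcinomas, was at 454 and 470.1 CPM in PL12, 0.219 and 0.115 in PL1, 129 and 127 in PLA and 0.232 and 0.0346 in PLA4 (adjusted p = 0.0313), high in PL12, lower in PLA and at trace level in PL1 and PLA4. Clca2, a p63-linked surface protein, was at 3.07 and 2.91 CPM against 24.2 to 119 (-4.24 ± 0.42, adjusted p = 0.00324). Muc1 was at 446 and 391 against 0.449 to 134 (adjusted p = 0.357), above all other libraries without a call. Clca2 passed whichever library was left out. The adjusted p rose past 0.05 without either library of PL12 or PLA for Msln (0.159).

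Chemokines and cytokines included 5 of 53 called higher (9.43%, against 5.14%) and 3 lower (5.66%). Cxcl5, which attracts neutrophils, was among the most abundant: 6680.4 and 6593 CPM in PL12, 1599 and 2435 in PL1, 2459 and 2390.2 in PLA and 470.2 and 699 in PLA4 (2.23 ± 0.21, adjusted p = 0.0102). Il1a, an alarmin cytokine, was at 514 and 405 CPM in PL12, 90.3 and 166 in PL1, 150.03 and 144 in PLA and 20.1 and 14.9 in PLA4 (2.73 ± 0.23, adjusted p = 0.0109). In both, PL12 was highest by more than 2-fold and PLA4 lowest. Il24 was at 63.1 and 69.9 CPM against 0.626 to 9.401, and Il34, a ligand of the Csf1 receptor, at 8.86 and 9.55 against 0.115 to 1.34. Tnf was lower at 1.74 and 1.397 against 6.97 to 54.6 (-3.83 ± 0.37, adjusted p = 0.00388), Il18 at 5.24 and 5.09 against 13.8 to 45.9 and the receptor chain Il20ra at 0.0205 and 0 against 0.635 to 5.37. Cxcl1 was at 440.4 and 453 against 38.7 to 467 and Cxcl2 at 214 and 225 against 1.83 to 235, inside the other lines. Cxcl12, the ligand of Ackr3, was at 0.184 and 0.119 against 0.00812 to 23.6. No single library decided the calls of Tnf and Il20ra. Calls were lost, with the highest adjusted p in parentheses, without either library of PL12 or PLA for Cxcl5 (0.0736), Il1a (0.0784) and Il24 (0.121), and without PLA library 1 for Il34 (0.0553), and without either library of PL12 for Il18 (0.0813). The count of higher genes was 1 without either PL12 library or PLA replicate 2, 0 without PLA replicate 1, 11 without PL1 replicate 2, 18 without the first pair and 12 without the second pair.

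Of 21 listed checkpoint and NK ligand genes, 4 were called higher (19%, against 5.14%) and 2 lower (9.52%, against 7.01%). The higher count includes Rae1, which is not an NK ligand gene. Pvr, a ligand of the receptor Tigit, was at 44.4 and 44.8 CPM against 9.73 to 24.9 (1.86 ± 0.27, adjusted p = 0.0427). Tigit itself, usually a lymphocyte gene, was at 24.2 and 27.3 against 1.01 to 7.16. H60b, an NKG2D ligand, was at 0.491 and 0.423 against 0 to 0.0169. The call of Rae1 (60.7 and 59.4 against 36.5 to 44.4) concerns an mRNA export factor and not the NKG2D ligands of similar name. Cd80, a T cell co-stimulator, was lower, at 5.81 and 5.05 CPM in PL12, 74.7 and 87.4 in PL1, 81.7 and 80.2 in PLA and 69.1 and 69.7 in PLA4 (-3.83 ± 0.13, adjusted p = 0.000354). PL12 was more than 10-fold below every other library for Cd80, and the 6 others were alike. Icosl was at 0.757 and 0.708 CPM against 1.65 to 10.6, and Cd274 (PD-L1) at 1.27 and 1.12 against 0.875 to 14.7, the latter without a call. The Cd80 call did not rest on any 1 library. The adjusted p missed 0.05 without either library of PL12 or PLA for Pvr (0.166), Tigit (0.143) and Rae1 (0.0906), and without either library of PL1 or PL12 or PLA library 1 for H60b (0.0924), and without either library of PL12 or PLA or PL1 library 2 for Icosl (0.165). Rae1 also missed without the filter on low counts. The count of higher genes was 0 without either PL12 library or PLA replicate 1, 1 without PLA replicate 2 and 8 without either pair.

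Of 24 antigen presentation genes, 3 were called lower (12.5%, against 7.01%) and 0 higher. H2-T23, a non-classical class I gene, was at 33.4 and 32.1 CPM in PL12, 72.99 and 75.7 in PL1, 246 and 236 in PLA and 223 and 176 in PLA4 (-2.22 ± 0.13, adjusted p = 0.003804). The class II chains H2-Ab1 (1.99 and 1.93 CPM against 7.22 to 30.5) and H2-Eb1 (0.123 and 0.129 against 0.381 to 8.41) were low everywhere and lowest in PL12. The classical class I gene H2-K1 was at 227 and 214 against 13.5 to 852 and B2m at 383 and 356 against 184 to 1494, inside the other lines. Among 45 interferon response genes 2 were lower (4.44%, against 7.01%) and 0 higher. Mx1, an antiviral GTPase, was among them at 1.88 and 1.19 against 5.07 to 33.1. The calls of H2-T23 and H2-Ab1 held with every library left out in turn. Past 0.05 went the adjusted p without either library of PL12 or PLA or PLA4 library 1 for H2-Eb1 (0.114) and Mx1 (0.187). Interferon genes called lower numbered 0 without either PL12 library or either PLA library, 1 without PL1 replicate 2 or PLA4 replicate 1, 4 without PLA4 replicate 2, 4 without the first pair and 17 without the second pair.

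Some immune cell genes were present in PL12. Mrc1, the macrophage mannose receptor, was at 64.8 and 61.9 CPM in PL12, 0.0921 and 0.273 in PL1, 0.496 and 0.559 in PLA and 0.0697 and 0.0346 in PLA4 (8.51 ± 0.33, adjusted p = 0.000822). Csf1r was at 12.3 and 11.1 CPM against 0.458 to 4.19, and Ly6g at 1.903 and 1.74 against 0 to 0.178. Of 22 immune cell genes listed, 10 had enough reads to be tested. These were the 3 called (30% of those tested, against 5.14%). The summed level of the list was 268 and 267 CPM in PL12 against 12.6 to 202 elsewhere. The largest part of that sum in PL12 was Cd14, which was not called (adjusted p = 0.6655). Its mean was 177 CPM in PL12, 46.5 in PL1, 113 in PLA and 20.1 in PLA4. The defining leukocyte gene Ptprc (CD45) had 1 count in each PL12 library, as did the macrophage gene Adgre1, while Lyz2 had 0 and 1, and Cd3e and Tyrobp had 0. Endothelial genes were likewise split. Of 16 listed, 8 were tested, and Sox17 was higher and Pecam1 lower (0.0614 and 0.0919 against 0.633 to 2.32). Sox17 entered the tested set only through its PL12 reads. That is 12.5% each way, against 5.14% higher and 7.01% lower over all genes. Tie1 and Cldn5 had 0 counts in PL12. With each library left out in turn, the call of Mrc1 held. The threshold was missed, with the highest adjusted p in parentheses, without either library of PL12 or PLA for Csf1r (0.195) and Ly6g (0.168), and without PL12 library 1 for Pecam1 (0.0572). Immune genes called higher numbered 1 without either PL12 library or either PLA library.

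Detoxification genes regulated by NRF2 were lower in part. Of 41 tested, 6 were called lower (14.6%, against 7.01%) and 2 higher (4.88%). The glutathione transferases Gsta3 and Gsta4 were at 11.6 and 11.3 CPM against 100.2 to 195 (-3.68 ± 0.20, adjusted p = 0.000822) and at 68.4 and 70.9 against 356 to 524 (-2.62 ± 0.13, adjusted p = 0.0006605). Gpx2, a glutathione peroxidase of epithelia, was at 32.8 and 33.6 CPM in PL12, 211 and 138 in PL1, 89.7 and 83.3 in PLA and 593 and 556 in PLA4 (-2.63 ± 0.20, adjusted p = 0.00419). The 3 genes of glutathione use were lowest in both PL12 libraries. Cbr1 was at 8.902 and 10.4 CPM against 17.2 to 39.6, while Txnrd1, thioredoxin reductase, was higher at 316 and 314 against 85.97 to 171. Other well-known targets were not called: Nqo1 was at 0.266 and 0.202 against 0.138 to 7.14, Gclm at 83.8 and 72.7 against 46.4 to 131 and Hmox1 at 39.3 and 40.6 against 31.4 to 104. The factor Nfe2l2 was at 215 and 194 against 171 to 319.5. Leaving out any 1 library kept the calls of Gsta3, Gsta4 and Gpx2. The adjusted p exceeded 0.05 without either library of PL1, PL12 or PLA for Cbr1 (0.211) and Txnrd1 (0.141). Targets called lower numbered 3 without either PL12 library or either PLA library and 15 without the second pair.

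Metabolic lists were close to the shares over all genes (5.14% higher and 7.01% lower). Glycolysis and hypoxia genes had 1 of 33 higher and 1 lower (3.03% each), namely Pfkfb4 at 15.5 and 14.9 CPM against 1.69 to 6.58 and the secreted peptide gene Adm at 4.38 and 4.13 against 13.3 to 80.8. Of 30 ATF4 and amino acid genes (3.33% each way), Phgdh, the first enzyme of serine synthesis, was higher at 255 and 284 against 44.8 to 145, and Ddit4, an inhibitor of mTORC1, lower at 149 and 202 against 268 to 752. Both lists thus had few calls in either direction. Of 29 lipid synthesis genes (6.9% each way), the elongase Elovl5 was at 133 and 123 against 28.3 to 65.7 (1.63 ± 0.08, adjusted p = 0.00278) and was higher, while the regulator Srebf1 (83.6 and 94.6 against 145 to 228) and lanosterol synthase Lss (99.97 and 91.4 against 187 to 391) were lower. Of 20 chaperones of the endoplasmic reticulum, Pdia6 was higher at 333 and 314 against 131 to 241 (5% of the list). Elovl5 passed whichever library was left out. A call was lost, with the highest adjusted p in parentheses, without either library of PL12 or PLA or PL1 library 1 for Phgdh (0.133) and Pdia6 (0.169), and without either library of PL12 or PLA for Pfkfb4 (0.172), and without either library of PL12 or PLA or PLA4 library 2 for Adm (0.192), and without either library of PL12 or PLA or PL1 library 2 or PLA4 library 1 for Ddit4 (0.148), and without either library of PLA or PL12 library 1 for Srebf1 (0.0893), and without either library of PL12 or PLA or PL1 library 2 for Lss (0.173). Pdia6 also missed without the filter on low counts. Of the ATF4 and amino acid list, genes called lower numbered 0 without either PL12 library or either PLA library, 6 without PL1 replicate 1, 6 without the first pair and 11 without the second pair, and of the chaperones, those called higher numbered 0 without either PL12 library, either PLA library or PL1 replicate 1, 5 without PL1 replicate 2, 2 without PLA4 replicate 1, 8 without the first pair and 2 without the second pair.

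Developmental regulators moved in both directions. Of 52 lineage factors, 9 were called lower (17.3%, against 7.01%) and 5 higher (9.62%, against 5.14%). Foxc1 was at 11.3 and 10.6 CPM in PL12, 47.7 and 46.03 in PL1, 54.2 and 52.9 in PLA and 52.5 and 51.8 in PLA4 (-2.22 ± 0.10, adjusted p = 0.000483), with PL12 low and the 6 others nearly equal. Sox9 was at 41.7 and 37.9 CPM against 98.4 to 199.6, Runx1 at 147 and 124 against 214 to 333, Tbx2 at 2.01 and 2.22 against 11.3 to 31.2 and Tfap2c at 0.409 and 0.4595 against 1.79 to 8.46. Beside Gata4 and Foxa2, the T-box gene Tbx18 was higher at 24.6 and 22.4 against 0 to 1.15. Cdx2, an intestinal factor, was at 14.7 and 16.4 CPM in PL12, 0.748 and 0.564 in PL1, 10.1 and 10.2 in PLA and 0.0155 and 0 in PLA4; PLA was close to PL12 and it was not called (adjusted p = 0.284). No single library decided the call of Foxc1. The adjusted p rose past 0.05 without PL12 library 2 for Sox9 (0.0545), and without either library of PL12 or PLA or PLA4 library 1 for Runx1 (0.126), and without PL12 library 1 for Tbx2 (0.0504), and without either library of PL1, PL12 or PLA for Tfap2c (0.19), and without either library of PL12 for Tbx18 (0.094). Lineage factors called lower numbered 4 without either PL12 library and 15 without the second pair, and those called higher 1 without PL12 replicate 1, 2 without PL12 replicate 2 and 9 without either pair.

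Of 41 homeobox genes, 4 were called higher (9.76%, against 5.14%) and 1 lower (2.44%, against 7.01%). The higher genes included 3 neighbours of the HoxB cluster on chromosome 11: Hoxb5 at 1.56 and 1.79 CPM against 0 to 0.247, Hoxb6 at 4.24 and 4.94 against 0 to 0.555 and Hoxb7 at 11.4 and 12.3 against 0 to 0.873. Hoxb9 of the same cluster was at 5.01 and 4.78 CPM in PL12 but at 14.6 and 32.5 in PLA4, and was not called. Irx3 was higher at 12.3 and 14.7 against 3.905 to 7.74, and Pitx1, a limb and oral factor, lower at 58.5 and 69.3 CPM in PL12, 309 and 310.4 in PL1, 223 and 216 in PLA and 251 and 364 in PLA4 (-2.11 ± 0.18, adjusted p = 0.00171). The Pitx1 call did not rest on any 1 library. Calls were lost, with the highest adjusted p in parentheses, without either library of PL12 or PLA or PL1 library 1 for Hoxb5 (0.19), Hoxb7 (0.141) and Irx3 (0.189), and without either library of PL12 or PL1 library 1 for Hoxb6 (0.165). Homeobox genes called higher numbered 0 without either PL12 library or PL1 replicate 1, 1 without either PLA library, 9 without the first pair and 7 without the second pair.

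Oncofetal and imprinted genes, active in the embryo and silenced in most adult tissue, were called higher at 3 of 20 (15%, against 5.14%) and lower at 0. Igf2bp1, an RNA-binding protein, was at 29.9 and 30.01 CPM in PL12, 10.4 and 10.9 in PL1, 0.00812 and 0.0254 in PLA and 0.0852 and 0.0692 in PLA4 (6.93 ± 0.21, adjusted p = 0.00989). It was at roughly 10 CPM or more in both PL lines, higher in PL12 than in PL1, and under 0.1 CPM in PLA and PLA4. The imprinted genes Mest (5.18 and 5.17 CPM against 0.305 to 0.782) and Cdkn1c, given above, were low in all lines and highest in PL12. Hmga2 was at 43.6 and 47.9 against 0.804 to 36.4 (adjusted p = 0.355) and Igf2 at 0.593 and 0.3401 against 0.0485 to 1.16, neither called. The call of Mest held with every library left out in turn. The adjusted p missed 0.05 without either library of PL12 for Igf2bp1 (0.0913). The count of higher genes was 5 without PL1 replicate 2, 10 without the first pair and 7 without the second pair.

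The Y-linked genes were detected in PL12 at a low level. Ddx3y was at 5.26 and 3.61 CPM in PL12, 78.8 and 86.1 in PL1, 14.9 and 14.3 in PLA and 0.0155 and 0.00692 in PLA4, and Kdm5d was at 2.19 and 1.72 CPM in PL12, 49.4 and 46.4 in PL1, 9.18 and 9.201 in PLA and 0 and 0.00692 in PLA4. PL12 was thus below PL1 and PLA but above PLA4, where Y-linked reads were nearly absent and Xist was at 208 and 385 CPM.

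Called genes formed runs of neighbours along the chromosomes (GRCm38). There were 21 runs of at least 3 adjacent tested genes called higher (70 genes) and 33 called lower (113 genes). The longest was a stretch of 11 clustered protocadherins, Pcdhb12 to Pcdhb22, on chromosome 18 from 37435621 to 37524479, all lower. These genes are similar in sequence, so reads could be split among them. On chromosome 10, 13207717 to 14151374, the 6 genes Phactr2, Fuca2, Pex3, Adat2, Aig1 and Hivep2 were lower. On chromosome 5, 110231004 to 110343212, the 5 genes Ankle2, Pgam5, Pxmp2, Pole and P2rx2 were higher, Ankle2 at 86.5 and 80.1 CPM against 46.1 to 51.03 and the mitochondrial phosphatase Pgam5 at 97.9 and 92.5 against 25.9 to 37.99.

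**Figure D5:**
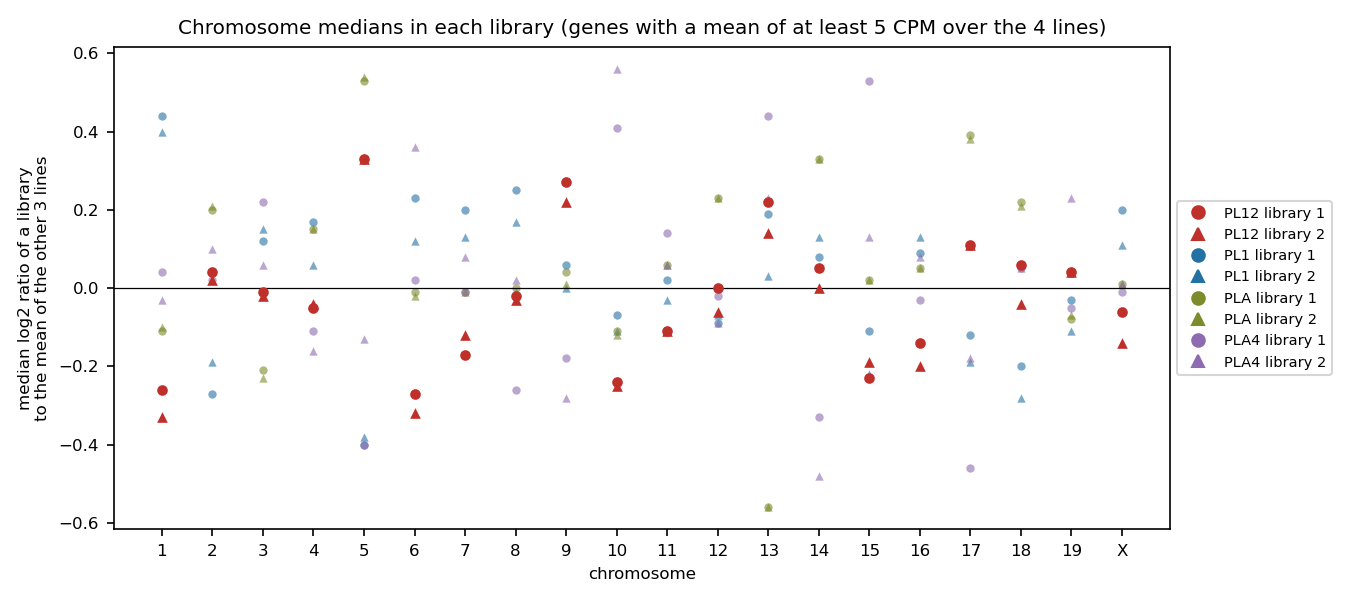
Median log2 ratio of each library to the mean of the other 3 lines for each chromosome, over genes whose mean over the 4 lines reached 5 CPM, with colours for lines and shapes for replicates. PL12 (large red points) lies at 0.33 and 0.33 on chromosome 5 and at -0.26 and -0.33 on chromosome 1, and its replicates lie close together.

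Whole chromosomes also differed in their shares of calls. On chromosome 5, 10.1% of tested genes were called higher and 2.61% lower, and the median log2 ratio of genes averaging 5 CPM or more was 0.33 in both PL12 libraries. PLA was higher still there (0.53 and 0.54) and PL1 lower (-0.40 and -0.38). On chromosome 9, 9.21% were called higher and 4.75% lower, with medians of 0.27 and 0.22. On chromosome 1, 2.96% were called higher and 12.2% lower (medians -0.26 and -0.33), and on chromosome 6 3.72% and 11% (medians -0.27 and -0.32). These shifts were small next to those of the genes named above, and DNA copy number was not measured here.

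The rule has a sharp boundary, so some genes passed it by very little. Just inside on the upper side, Bak1 was at 133 and 155 CPM in PL12 against 58.2 to 133, and Hsp90ab1 at 3194 and 3086 against 2007 to 3085. Just outside were Psme3 (233 and 219 against 151 to 219) and Pgm3 (22.3 and 22.1 against 11.5 to 22.2). On the lower side Yipf3 (36.6 and 43.3 against 43.3 to 67.8) and Uqcr11 (43.3 and 65.7 against 65.7 to 158) lay just inside, and Txn2 (71.2 and 77.9 against 77.9 to 121) and Cdk5r1 (2.72 and 3.24 against 3.23 to 18.5) just outside.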

How the data were processed

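RNA-seq libraries from 4 mouse LUSC cell lines, 2 per line, were compared. The labels' protocols give full-length cDNA synthesis with PCR (SMARTer) and Nextera XT libraries, without molecular identifiers and without a strand mark. The submitters' processing notes name the build GRCm38 and the tools STAR, RSEM, FastQC and DESeq2; versions, settings and the annotation release were not given in the sources used here. RSEM expected counts and TPM of 55487 genes were deposited by the authors, and 14.2% of the deposited expected counts were not whole. The authors' TPM values served only to compare genes per length.

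Expected counts were rounded, and edgeR 4.0.16 (R 4.3.3, limma 3.58.1) kept 18648 genes by filterByExpr (minimum count 10, minimum total 15), scaled them by TMM and fitted 1 mean per line over the 8 libraries (4 residual degrees of freedom). Adjusted p values are Benjamini-Hochberg over all genes tested, with a threshold of 0.05. CPM use TMM library sizes, and 3 counts was the lower limit for a library. Counting error alone was covered by that limit, and totals of 48857960 to 142458281 reads made it at most 0.0614 CPM. Counts were simulated for 18648 genes with PL12 changed. Of the 100 genes given a 4-fold change 69% were called, and of the 100 given a 16-fold change 89%, with no wrong sign. Of 2000 genes left unchanged, 1 was called. All these genes were given 1 mean in the other 3 lines, so false calls where PL12 differs from only some lines were not measured.

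The members, lists and tests were chosen with earlier results of these data known. Genes named are Ackr3 and Stk11, the 15 in each direction with the largest smallest difference over the 3 line comparisons (called, at least 5 CPM on the higher side, plain symbol), up to 6 called members per list by the same order, members marked as defining, genes near 0 on 1 side, the longest runs and the genes nearest the boundary of the rule. Some of these genes are not reported here. Coordinates come from the GENCODE annotation of GRCm38, which matched 55141 gene identifiers without their version and 54349 with it. Alternatives were DESeq2 1.42.0, its size factors, unscaled counts, TPM, other filters, a 2-fold margin, summed libraries, a replicate block and each library left out; the pairs of libraries left out together were chosen after seeing the data. Unstranded counting cannot separate a gene from an overlapping or antisense gene.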

Additional observations from a re-analysis of the deposited data

How the results depend on the processing

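With each library left out in turn, edgeR called 142 to 1290 genes higher in PL12 and 273 to 1560 lower, and the rule kept 3670 to 4351 genes above and 3579 to 4886 below. Without PL1 replicate 2 and PLA4 replicate 1 the calls were 2273 and 2662, and without PL1 replicate 1 and PLA4 replicate 2 they were 2680 and 2684; both settings were chosen after seeing the data. A 2-fold margin over every line left 539 and 730 calls, and a 2-fold gap left 769 genes above and 783 below. Tested against the mean of the 3 lines alone, 3510 and 3341 genes passed, and with libraries summed by line 0 and 0. Unscaled counts kept 686 above. DESeq2 called 1285 and 1577. For the replicate block, the numbers do not pair the libraries (correlations of same-numbered deviations -0.19 to 0.01), and with the block edgeR called 651 and 1011. Of 170 called genes chosen by the naming rule, 62 passed with every library left out in turn, 108 did not and 0 changed direction under the alternatives run. All 170 missed the threshold in at least 1 alternative, the summed libraries among them. Depth limits statements on genes under 3 counts per library.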

Other observations

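Some genes outside the lists were picked after their values were seen, and the following values describe them. Beside Prl2a1, another placental prolactin gene was abundant in PL12: Prl2c2 was at 602 and 641 CPM against 0.616 to 28.6 in the other lines, with a log2 fold change of 7.01 ± 0.58 (edgeR adjusted p = 0.00964). Prl2c3 was at 214 and 232 CPM in PL12 and was not called (adjusted p = 0.0851). These genes have near-identical copies, so the split of reads between them is uncertain.

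The 3 interferon-induced membrane protein genes Ifitm1, Ifitm2 and Ifitm3, which restrict virus entry and lie together on chromosome 7, were called lower by edgeR. Ifitm1 was at 42.1 and 42.4 CPM in PL12 and 118 to 1789.5 elsewhere (-3.25 ± 0.33). Ifitm3 was at 168 and 217 against 1057 to 1924 (-2.97 ± 0.25), and Ifitm2 at 116 and 129 against 343 to 884 (-2.21 ± 0.40). They were not members of the interferon list.

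Several called genes were abundant in PL12. Odc1, the first enzyme of polyamine synthesis, was at 1352 and 1408 CPM against 141 to 386 (2.84 ± 0.17, edgeR adjusted p = 0.00312). Emp1, an epithelial membrane protein, was at 1218 and 1189 against 26.7 to 123 (3.86 ± 0.43), and Thbd, thrombomodulin, at 299.9 and 306 against 1.02 to 15.3 (5.30 ± 0.77, adjusted p = 0.0259). Among abundant genes, Igfbp3, which binds insulin-like growth factors, was called lower at 507 and 509 against 1269.8 to 4839.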
